A study of Mus musculus with 9 samples.

Results

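Genes that prepare and display peptides on MHC class I molecules were described in lung organoids of smoke-exposed and naïve mice. The set lists 10 genes, Psmb8, Psmb9, Psmb10, Tap1, Tap2, Tapbp, B2m, H2-K1, H2-D1 and Nlrc5. A gene was taken through its transcript cluster, the probe set that gives 1 log2 signal per array, and where several clusters carried its symbol alone, through the one with the highest mean over the 9 arrays. By this rule 9 of the 10 genes were measured, among 22180 genes named by clusters with 1 symbol. H2-D1 was represented only by a cluster that it shares with H2-Q2, whose signals of 2.59 to 3.03 lay near the array medians and were not assigned to either gene.

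The study asked how cigarette smoke exposure alters alveolar type 2 cells and the organoids grown from smoke-exposed lungs. The mice were male BALB/c, 8 to 12 weeks old, and breathed either whole-body cigarette smoke for 12 weeks or clean air. Cells dissociated from the right lung were grown in Matrigel, in proliferation medium until day 6 and in differentiation medium with less serum thereafter. The later medium was used with or without inhibitors of ROCK and TGF-β, and the methods do not say which cultures received them. CSD14 denotes organoids of smoke-exposed mice at culture day 14, CSD5 organoids of smoke-exposed mice at culture day 5, and ND14 organoids of naïve mice at culture day 14, with 3 Mouse Gene 2.0 ST arrays in each group. CSD14 and ND14 therefore shared culture day and the change of medium and differed in exposure, though whether they shared the inhibitors is not stated. CSD14 and CSD5 differed in culture day and medium. CSD5 and ND14 differed in exposure, day and medium, which cannot be told apart. The labels call the replicates biological. The sources used here do not state whether they came from separate mice or cultures, so the p-values measure only the spread between these samples.

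Nucleated cells display fragments of their own proteins on MHC class I molecules, where cytotoxic T cells read them. The proteasome cuts proteins into peptides. Its catalytic subunits can be exchanged for the inducible subunits encoded by Psmb8, Psmb9 and Psmb10, which together form the immunoproteasome. Tap1 and Tap2 form the transporter that moves peptides into the endoplasmic reticulum, and tapasin, the product of Tapbp, holds empty class I molecules at that transporter. B2m is the light chain of every classical class I molecule, H2-K1 and H2-D1 are heavy chains, and Nlrc5 is a transactivator of class I promoters. Interferons, above all interferon gamma, are known to induce these genes in many cell types, epithelial cells included.

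Psmb9, Tap1, Psmb8 and Tap2 are consecutive coding genes on chromosome 17, between H2-DMb1 and H2-Ob, and 7 of the 10 genes lie on that chromosome. Psmb10 and Nlrc5 lie on chromosome 8 and B2m on chromosome 2. Promoter windows from RefSeq (GRCm38.p6) were matched for 8 of the 10 genes, and 3 regions are shown because their genes span the range from light chain to heavy chain to the pair that share an upstream region. B2m is given by the 250 bases before its start at chr2:122147437-122147686 on the plus strand, H2-K1 by the 250 bases at chr17:34000348-34000597 on the minus strand, and Psmb9 and Tap1, which start in opposite directions, by the 225 bases between their start sites at chr17:34187331-34187555 on the plus strand. Capitals mark matches, on either strand, to the letters of elements known from class I promoters, and the elements were chosen with these sequences in view.
B2m: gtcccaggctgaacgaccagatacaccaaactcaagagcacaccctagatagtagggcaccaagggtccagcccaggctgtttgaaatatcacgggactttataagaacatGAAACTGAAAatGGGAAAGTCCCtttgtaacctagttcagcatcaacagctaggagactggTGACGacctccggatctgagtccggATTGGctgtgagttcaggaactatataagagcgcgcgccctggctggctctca
H2-K1: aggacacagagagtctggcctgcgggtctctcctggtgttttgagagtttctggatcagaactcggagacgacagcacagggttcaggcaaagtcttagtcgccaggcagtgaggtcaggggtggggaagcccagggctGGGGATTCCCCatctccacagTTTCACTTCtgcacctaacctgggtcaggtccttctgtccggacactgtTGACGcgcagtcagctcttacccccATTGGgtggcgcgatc
Psmb9-Tap1: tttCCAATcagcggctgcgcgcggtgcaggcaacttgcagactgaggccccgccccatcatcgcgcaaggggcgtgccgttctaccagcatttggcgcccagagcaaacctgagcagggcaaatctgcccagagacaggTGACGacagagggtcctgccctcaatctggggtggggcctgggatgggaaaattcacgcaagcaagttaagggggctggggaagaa
In the B2m window the capitals mark an interferon-stimulated response element (ISRE, letters GAAA and GAAA separated by NN) 139 to 130 bases before the start, and overlapping kappaB-type matches (GGGA and CC separated by NNNN) 127 to 117 bases before it. TGACG, the core of the X2-type element, follows at 78 to 74 bases, and a CCAAT box on the minus strand at 53 to 49 bases. In the H2-K1 window they mark kappaB-type matches 111 to 101 bases before the start, a shorter interferon regulatory factor match (GAANNGAAA, minus strand) at 90 to 82 bases, TGACG at 41 to 37 bases and a minus-strand CCAAT box at 16 to 12 bases. Between Psmb9 and Tap1 they mark CCAAT at 222 to 218 bases before the Tap1 start, which is 8 to 4 bases before the Psmb9 start, and TGACG at 86 to 82 bases before the Tap1 start. The mouse reference is a C57BL/6J genome and these mice were BALB/c, so the letters need not be those of the animals.

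Over the 8 genes with a window, CCAAT was found in 6, against 34.5% of 27025 promoter windows of the same length. Psmb9 and Tap1 share their upstream region, so that its CCAAT and its TGACG each count for both genes. TGACG was found in 5, namely B2m, H2-D1, H2-K1, Psmb9 and Tap1, against 17.9% of windows. The kappaB-type letters were found in B2m, H2-D1 and H2-K1, against 17.3%, the ISRE letters in B2m alone, against 3.04%, and GAANNGAAA in H2-D1 and H2-K1, against 6.34%. These are matches of letters and were not set against the signals.

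Signals were read for 34472 transcript clusters on each array, with array medians of 2.79 to 3.04 on the log2 scale. CSD5 replicate 1 stood apart from the other arrays of its group, so counts of genes that passed in CSD5 against ND14 are given with and without it. Markers of epithelium (Epcam, Cdh1, Krt8, Krt18 and Krt19) averaged 9.25 to 9.33 in CSD14, 8.64 to 9.11 in CSD5 and 8.53 to 8.64 in ND14. Pan-leukocyte markers averaged 2.61 to 2.84 in CSD14, 2.85 to 3.51 in CSD5 and 2.69 to 2.73 in ND14.

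In CSD14 organoids the immunoproteasome subunits, Tap1, Tapbp, B2m and H2-K1 were higher than in ND14 organoids, with fold changes of 1.96 to 3.91, while Tap2 and Nlrc5 did not pass the test. In limma's moderated test with Benjamini-Hochberg adjustment over all clusters, 7 of 9 genes passed at an adjusted p under 0.05, all of them higher in CSD14. Over all clusters 9.15% passed in either direction and 5.48% passed as higher. At an unadjusted p under 0.05, 7 of 9 genes were higher as well, beside 19.3% of all clusters in either direction and 11% that were higher. With the study's thresholds, which ask for more than a 2-fold difference at an unadjusted p under 0.05, 5 of 9 genes were called, beside 4.75% of all clusters in either direction and 2.31% as higher. The 3 CSD14 arrays lay above the 3 ND14 arrays for 7 of 9 genes, against 13.1% of all clusters. The median log2 fold change was 1.04 for the 9 genes, beside 0.00 for all clusters. Since each array reads the RNA of a whole culture, fewer cells of a type and less RNA per cell cannot be told apart.

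**Figure D1:**
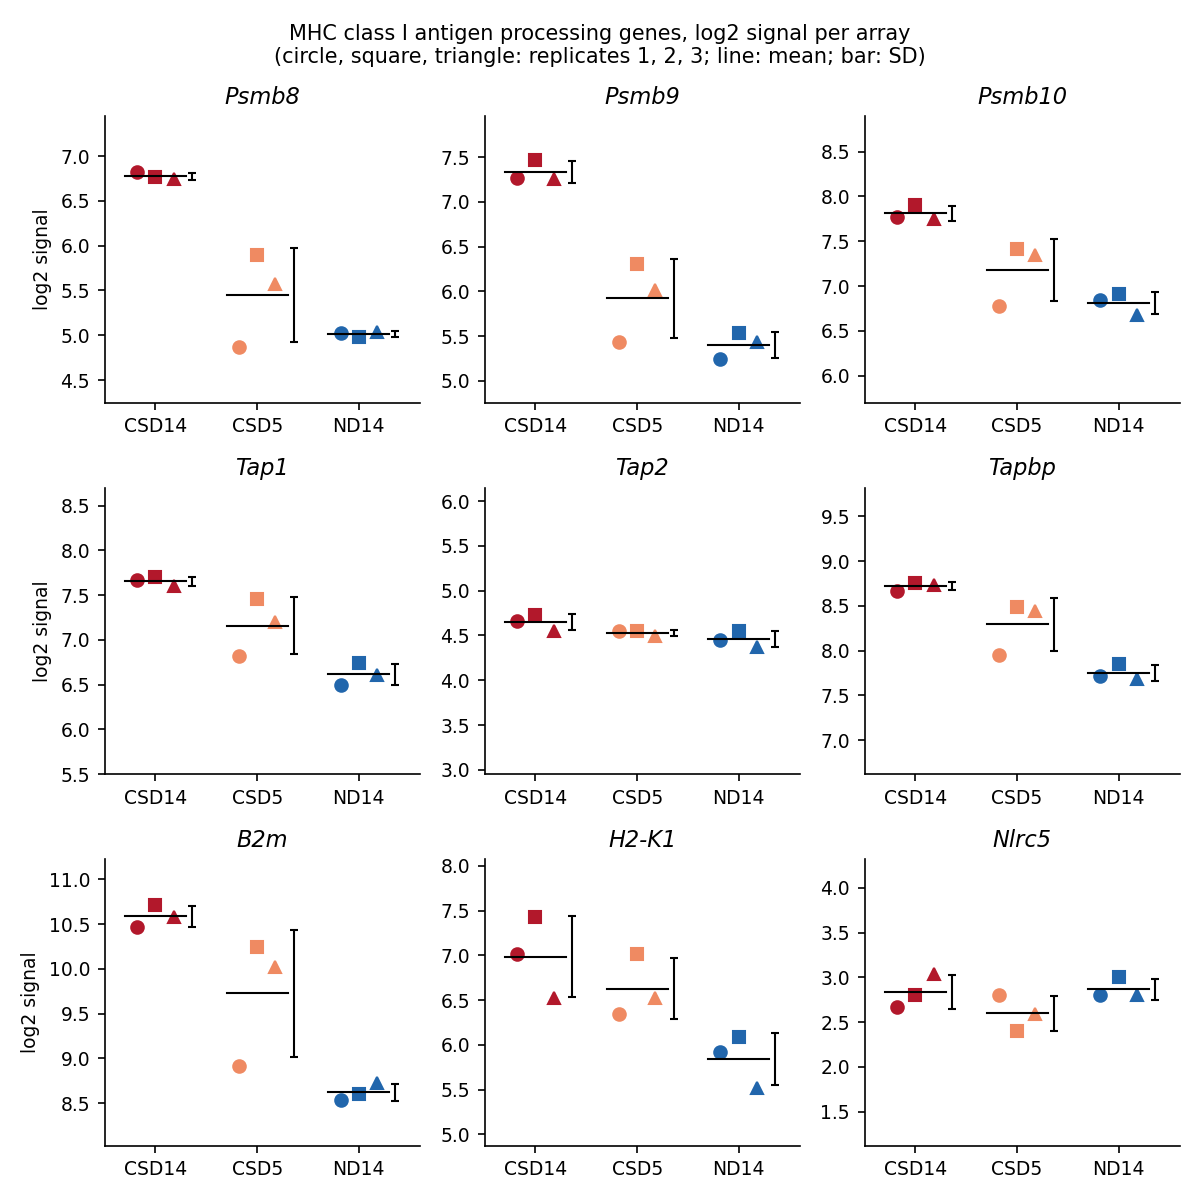
Log2 signal of each of the 9 measured genes on every array, 1 panel per gene, with CSD14, CSD5 and ND14 along the horizontal axis. Circles, squares and triangles are replicates 1, 2 and 3, the line is the group mean and the bar the SD (n = 3), and each vertical axis spans the same log2 range. The CSD14 arrays lie above the ND14 arrays for every gene shown except Tap2 and Nlrc5, and CSD5 replicate 1 lies below the other CSD5 arrays for most genes.

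The immunoproteasome subunits showed 2 of the 3 largest changes of the set. Psmb9, which replaces the constitutive subunit Psmb6, had log2 signals of 7.27, 7.47 and 7.25 in CSD14, 5.44, 6.31 and 6.02 in CSD5, and 5.24, 5.53 and 5.43 in ND14. All CSD14 arrays lay above all CSD5 and ND14 arrays, and CSD5 and ND14 overlapped. The log2 fold change was 1.93 (SE 0.20, limma adjusted p = 0.000827) in CSD14 against ND14, a 3.81-fold difference, and 1.41 (adjusted p = 0.00872) in CSD14 against CSD5. Psmb8, which replaces Psmb5, had log2 signals of 6.82, 6.77 and 6.74 in CSD14, 4.87, 5.90 and 5.57 in CSD5, and 5.03, 4.98 and 5.04 in ND14. Its lowest array of all was CSD5 replicate 1, while the other CSD5 arrays lay above ND14 and every CSD14 array lay above both other groups. It was 3.39-fold higher in CSD14 than in ND14 (log2 fold change 1.76, SE 0.22, limma adjusted p = 0.0016) and 2.51-fold higher in CSD14 than in CSD5 (log2 fold change 1.33, adjusted p = 0.0156).

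Psmb10, which replaces Psmb7 and lies outside the MHC region, changed less. Its log2 signals were 7.77, 7.91 and 7.75 in CSD14, 6.78, 7.41 and 7.35 in CSD5, and 6.84, 6.91 and 6.68 in ND14. CSD14 lay above both other groups, and CSD5 replicate 1 fell within the range of ND14. The difference between CSD14 and ND14 was 2.00-fold (SE 0.17 on the log2 scale, limma adjusted p = 0.00533), and the log2 fold change of 0.63 between CSD14 and CSD5 did not pass (adjusted p = 0.0897).

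The constitutive subunits that these 3 replace showed no such difference between CSD14 and ND14. Psmb5 averaged 10.17 ± 0.06 in CSD14, 10.11 ± 0.12 in CSD5 and 10.22 ± 0.07 in ND14 (log2 signal, SD, n = 3). Its log2 fold change in CSD14 against ND14 was -0.04, that of Psmb6 was -0.15 and that of Psmb7 was -0.20, and none of these passed in limma (adjusted p of 0.898, 0.754 and 0.553). Taken as a log2 difference within each array, Psmb9 minus Psmb6 was 2.08 higher in CSD14 than in ND14, Psmb8 minus Psmb5 1.80 higher and Psmb10 minus Psmb7 1.20 higher. In each of these the 3 CSD14 arrays lay above the 3 ND14 arrays, and the two-sided exact permutation p was 0.1 (0.133 after adjustment over 12 such tests), the smallest that 3 arrays against 3 allow. In CSD5 against ND14 the same differences were 0.94 for Psmb9, 0.54 for Psmb8 and 0.70 for Psmb10, with overlapping arrays. The exact permutation p was 0.2, 0.4 and 0.3 in that order. Psmb9, Psmb8 and Psmb10 by themselves had log2 fold changes of 0.52, 0.43 and 0.37 there. The constitutive Psmb6, Psmb5 and Psmb7 had log2 fold changes of -0.41, -0.11 and -0.33, which add to the differences. None of these passed in limma (adjusted p of 0.336, 0.659 and 0.344), while Psmb6 and Psmb7 had an unadjusted p under 0.05.

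Of the transporter pair, Tap1 passed and Tap2 did not. Tap1 had log2 signals of 7.67, 7.70 and 7.60 in CSD14, 6.82, 7.46 and 7.20 in CSD5, and 6.50, 6.74 and 6.61 in ND14. The 3 groups did not overlap, with CSD14 highest and ND14 lowest. The difference between CSD14 and ND14 was 2.06-fold (log2 fold change 1.04, SE 0.16, limma adjusted p = 0.00348). Tap2 had log2 signals of 4.66, 4.73 and 4.55 in CSD14, 4.55, 4.55 and 4.49 in CSD5, and 4.45, 4.55 and 4.37 in ND14, and the groups touched or overlapped. Its log2 fold change in CSD14 against ND14 was 0.19 (95% confidence interval -0.04 to 0.42, limma adjusted p = 0.374). Within each array, Tap1 minus Tap2 was 0.85 higher in CSD14 than in ND14 and 0.47 higher in CSD5 than in ND14, with no overlap in either (exact permutation p = 0.1 each). This pair was set against each other after its values had been seen.

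Tapbp, whose product tapasin edits the peptides that class I molecules bind, resembled Tap1. Its log2 signals were 8.67, 8.76 and 8.73 in CSD14, 7.95, 8.49 and 8.44 in CSD5, and 7.72, 7.85 and 7.68 in ND14. The groups were again separate and in the same order. The difference between CSD14 and ND14 was 1.96-fold (log2 fold change 0.97, SE 0.15, limma adjusted p = 0.00353). A second cluster that carries the symbol Tapbp alone had signals of 3.53 to 4.49 and a log2 fold change of 0.35 (SE 0.20, adjusted p = 0.425), so the clusters of this gene differed in size of change. The mean of both clusters gave 0.66 (limma adjusted p = 0.0113).

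B2m, the light chain, had the largest change of the 9 genes in CSD14 against ND14. Its log2 signals were 10.47, 10.71 and 10.58 in CSD14, 8.92, 10.24 and 10.02 in CSD5, and 8.54, 8.60 and 8.72 in ND14. The 3 groups did not overlap, and CSD5 spread most, with replicate 1 well below replicates 2 and 3. B2m was 3.91-fold higher in CSD14 than in ND14 (log2 fold change 1.97, SE 0.28, limma adjusted p = 0.0029). Between CSD5 and ND14 the log2 fold change was 1.11, or 2.15-fold, and did not pass (adjusted p = 0.203).

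H2-K1, the heavy chain with a cluster of its own, had the largest SD of the 9 genes within CSD14 and within ND14. Its log2 signals were 7.01, 7.43 and 6.52 in CSD14, 6.35, 7.01 and 6.52 in CSD5, and 5.92, 6.09 and 5.52 in ND14. All CSD14 and CSD5 arrays lay above all ND14 arrays, and CSD14 and CSD5 overlapped. The difference between CSD14 and ND14 was 2.21-fold (log2 fold change 1.14, SE 0.25, limma adjusted p = 0.0204). That call was lost when CSD14 replicate 1 (adjusted p = 0.0728), CSD14 replicate 2 (0.0727), ND14 replicate 1 (0.0626) or ND14 replicate 3 (0.0856) was left out, with log2 fold changes of 0.92 to 1.18. Class I heavy chain genes are close copies of one another and differ between mouse strains, and the part of cross-hybridisation in this signal was not tested.

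Nlrc5, the transactivator, was measured at the level of the array medians. It had log2 signals of 2.67, 2.80 and 3.04 in CSD14, 2.80, 2.40 and 2.59 in CSD5, and 2.80, 3.0 and 2.80 in ND14. The groups overlapped in CSD14 against ND14, where the log2 fold change was -0.03 (95% confidence interval -0.35 to 0.29, limma adjusted p = 0.951). In CSD5 against ND14 it was -0.27 (-0.59 to 0.05, adjusted p = 0.428).

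**Figure D2:**
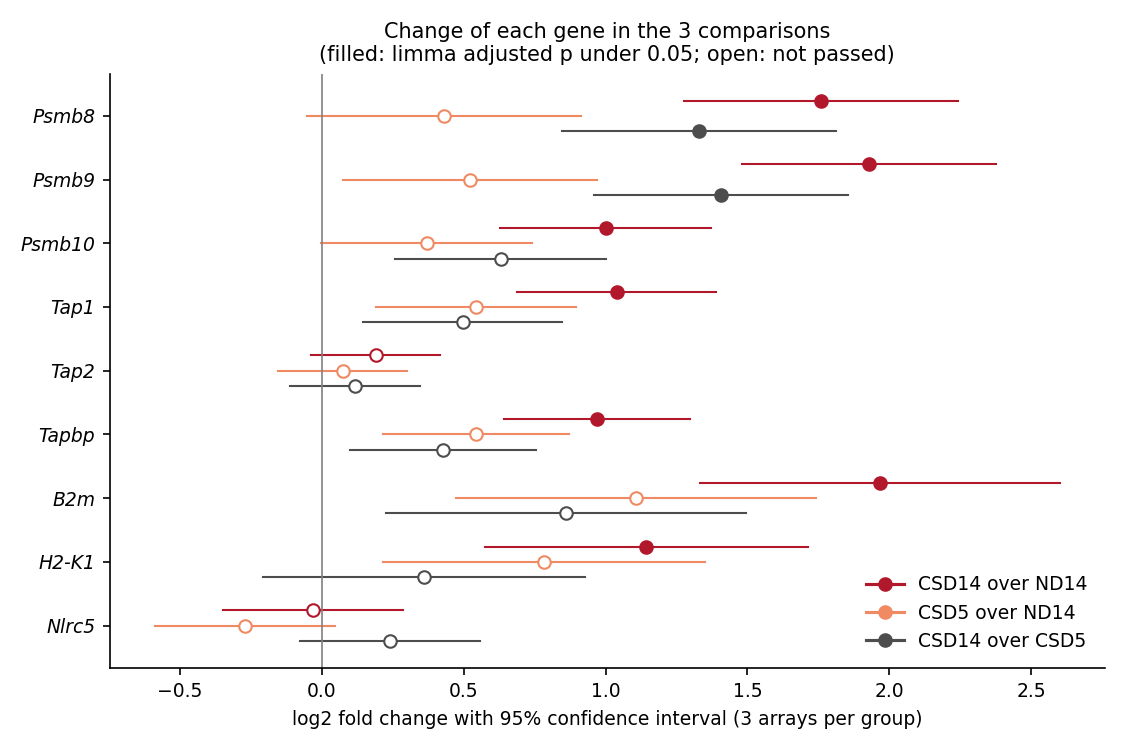
Log2 fold change of each measured gene in the 3 comparisons (horizontal axis), with 95% confidence intervals from limma's fit of all 9 arrays. Filled points passed at an adjusted p under 0.05: 7 genes in CSD14 over ND14, 0 in CSD5 over ND14, and Psmb8 and Psmb9 in CSD14 over CSD5.

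Day 5 organoids of smoke-exposed mice lay mostly between the other groups. The CSD5 mean was between the CSD14 and ND14 means for 8 of 9 genes, Nlrc5 being the exception. The share of all clusters with a CSD5 mean in the middle was not counted. Against ND14, 0 of 9 genes passed limma's adjusted test in CSD5, where 0.0029% of all clusters passed. At an unadjusted p under 0.05, 5 of 9 genes were higher in CSD5, beside 4.52% of all clusters that were higher and 13.8% that differed in either direction, and limma without moderation called 0 of 9 after adjustment. At the study's thresholds B2m alone was called, beside 1.98% of all clusters in either direction and 0.766% as higher. All CSD5 arrays lay above all ND14 arrays for Tap1, Tapbp, B2m and H2-K1, 4 of 9 genes, against 4.31% of all clusters. The median log2 fold change was 0.52 for the 9 genes, beside -0.09 for all clusters.

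The CSD5 arrays differed widely among themselves. Replicate 1 was the lowest CSD5 array for 7 of 9 genes, and replicate 2 was the highest for 7 of 9. The matching shares of all clusters were not counted. With the distance from the ND14 mean to the CSD14 mean taken in percent, the median position over the 7 genes that passed in CSD14 against ND14 was 15.3% for CSD5 replicate 1, 76.3% for replicate 2 and 56.1% for replicate 3. For Psmb8 the 3 CSD5 arrays stood at -8.3%, 50.2% and 31.4%, and for B2m at 15.3%, 82.4% and 71.2%. The arrays of one group thus differed by more than the distance that separated some of them from ND14.

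**Figure D3:**
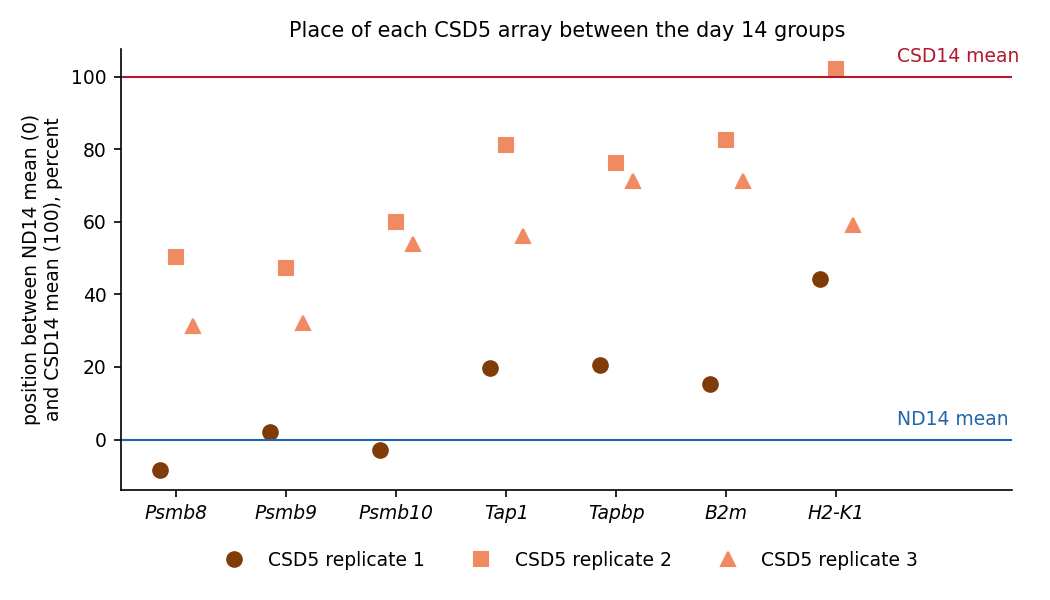
Position of each CSD5 array between the ND14 mean (lower line) and the CSD14 mean (upper line), in percent of that difference (vertical axis), for the 7 genes that passed in CSD14 against ND14. Replicate 1 stands lowest for each gene, between -8.3% and 44.3%, and replicate 2 highest, between 47.2% and 102.0%.

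Without CSD5 replicate 1, 6 of 9 genes passed as higher in CSD5 than in ND14. Over all clusters 9.67% then passed in either direction, and 1173 of 34472 passed as higher. B2m had a log2 fold change of 1.51 (limma adjusted p = 8.93e-05), Psmb9 of 0.77 (0.00912), Psmb8 of 0.72 (0.006), Tap1 of 0.71 (0.00708), Psmb10 of 0.57 (0.0159), and Tapbp of 0.72 (0.00298). Tap2, H2-K1 and Nlrc5 did not pass. The same array also differed from its group in cell type markers. Squamous epithelium markers averaged 8.05 on it, 6.80 and 6.51 on the other CSD5 arrays and 8.07 to 8.12 in ND14, and alveolar type 2 markers averaged 5.81 on it, 7.10 and 7.11 on the others and 5.06 to 5.19 in ND14. Pan-leukocyte markers averaged 2.85 on it, 3.51 and 3.24 on the others and 2.69 to 2.73 in ND14. The part of these cells in the CSD5 signals was not tested.

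Between the culture days of smoke-exposed organoids, Psmb8 and Psmb9 were higher in CSD14 than in CSD5, 2 of 9 genes, where 2.41% of all clusters passed in either direction and 1.91% as higher. At an unadjusted p under 0.05, 6 of 9 genes were higher in CSD14, beside 12.4% of all clusters that were higher and 16.1% that differed in either direction. The study's thresholds called the same 2 of 9 genes, beside 1.79% of all clusters in either direction and 0.957% as higher. All CSD14 arrays lay above all CSD5 arrays for 6 of 9 genes, against 14% of all clusters. The median log2 fold change was 0.50, beside 0.09 for all clusters. The intervals of the remaining genes allowed differences of either small or moderate size. For H2-K1 the log2 fold change was 0.36 (95% confidence interval -0.21 to 0.93), for Tap2 it was 0.12 (-0.11 to 0.34), and for B2m it was 0.86 with an adjusted p of 0.168 in limma. Both calls were lost when only the 6 arrays of these groups were fitted (limma adjusted p = 0.0911 for Psmb8 and 0.0637 for Psmb9), and that of Psmb8 also when any one CSD14 array was left out (0.0574 to 0.0772).

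Further genes of the pathway were counted by list in CSD14 against ND14, where 9.15% of all clusters passed in either direction and 5.48% as higher. Of the constitutive 20S proteasome, 0 of 13 measured subunits passed in either direction in limma, 1 had an unadjusted p under 0.05, and the median log2 fold change was -0.05. Of the 4 immunoproteasome partners, Psme1, a subunit of the PA28 activator, passed at 0.68 (limma adjusted p = 0.0129), while Psme2, its partner subunit, had a log2 fold change of 0.24 (adjusted p = 0.715). Among 9 measured peptide trimming and loading partners, 3 were higher and 0 lower, with a median of 0.40. Lap3, a cytosolic leucine aminopeptidase, was 0.87 higher, Erap1, the aminopeptidase that trims peptides in the endoplasmic reticulum, 0.94 higher and Calr, the chaperone calreticulin, 0.40 higher on the log2 scale. Lap3 also passed in CSD14 against CSD5, where it was 0.78 higher (limma adjusted p = 0.0201).

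Of 24 further class I and class I-like heavy chains listed, 16 were measured. In CSD14 against ND14, 5 of the 16 were higher and 0 lower, with a median log2 fold change of 0.16. Fcgrt, the neonatal Fc receptor that carries immunoglobulin G and albumin across cells, was 1.64 higher (limma adjusted p = 0.0067). H2-T24 was 1.02 higher, and so was Mr1, which presents vitamin B metabolites to mucosal-associated T cells. H2-M3, which binds peptides with a formylated start, was 0.99 higher and H2-T23, the Qa-1 heavy chain, 0.88 higher. These proteins pair with B2m, and those that passed include chains with roles outside the presentation of peptides to cytotoxic T cells. H2-M3 and H2-T23 also passed in CSD14 against CSD5, with log2 fold changes of 0.94 and 0.90 (limma adjusted p = 0.015 and 0.0281). As with H2-K1, the part of cross-hybridisation in the signals of these heavy chains was not tested.

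Of 13 measured transcription factors of class I genes, 3 were higher and 0 lower. Stat2 was 1.24 higher and Irf9 1.01 higher, and these encode partners in the complex that binds the ISRE after type I interferon signals. Rfxank, a subunit of the RFX complex that binds the X box, was 0.66 higher. Irf1, a direct activator of class I promoters, had log2 signals averaging 4.81 ± 0.11 in CSD14, 4.29 ± 0.21 in CSD5 and 4.26 ± 0.34 in ND14 (SD, n = 3), and its log2 fold change of 0.54 in CSD14 against ND14 did not pass (limma adjusted p = 0.104).

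Of 15 interferon ligands, receptors and proximal signalling genes, the receptor subunits Ifngr2 and Ifnar2 were higher in CSD14 than in ND14 and 0 were lower, beside 9.15% of all clusters that passed in either direction. Ifngr2 averaged 9.14 ± 0.09 in CSD14, 8.52 ± 0.19 in CSD5 and 8.10 ± 0.16 in ND14 (log2 signal, SD, n = 3), and the log2 fold change was 1.04 in CSD14 against ND14 (limma adjusted p = 0.00187) and 0.62 in CSD14 against CSD5 (adjusted p = 0.0418). Ifnar2 was 0.94 higher in CSD14 than in ND14 (adjusted p = 0.0269). The ligand Ifng averaged 3.17 in CSD14, 2.86 in CSD5 and 3.11 in ND14, near the array medians, and Ifnb1 averaged 2.12, 1.99 and 2.02 in the same order, below them. The differences of both ligands were within the spread between arrays.

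The MHC class II pathway, which shares the chromosome region but presents peptides from outside the cell, had 0 of 11 measured genes passing in limma in CSD14 against ND14, 1 at an unadjusted p under 0.05 (H2-Ab1, log2 fold change 0.47, adjusted p = 0.0863) and a median of 0.12. Ciita, the class II transactivator, averaged 3.40 in CSD14, 3.21 in CSD5 and 3.34 in ND14. Ctss, a lysosomal protease of macrophages and other cells, was lower in CSD14 than in CSD5 by 2.91 on the log2 scale (limma adjusted p = 0.0277). In CSD5 against ND14, 0 genes of these 7 lists passed in limma with all arrays. At an unadjusted p under 0.05, 13.8% of all clusters differed in either direction and 4.52% were higher. There 5 of 13 constitutive 20S subunits and 2 of 4 immunoproteasome partners differed, 0 of them higher. Of 9 trimming and loading partners 4 differed, 3 of them higher, and of 13 transcription factors 4, 3 of them higher. Of 16 heavy chains 3 differed and of 15 interferon pathway genes 1, all of them higher. Of 11 class II genes 3 differed, 2 of them higher. Without CSD5 replicate 1, a fit added after the data had been seen, where 9.67% of all clusters passed in either direction, 4 of 16 heavy chains were higher and 0 lower in CSD5 than in ND14, 2 of 13 transcription factors higher and 1 lower, and 2 of 15 interferon pathway genes higher and 0 lower. In the same fit 3 of 13 constitutive 20S subunits and 2 of 4 immunoproteasome partners were lower and 0 higher, 1 of 9 trimming and loading partners was higher and 1 lower, and 1 of 11 class II genes was higher and 0 lower.

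**Figure D4:**
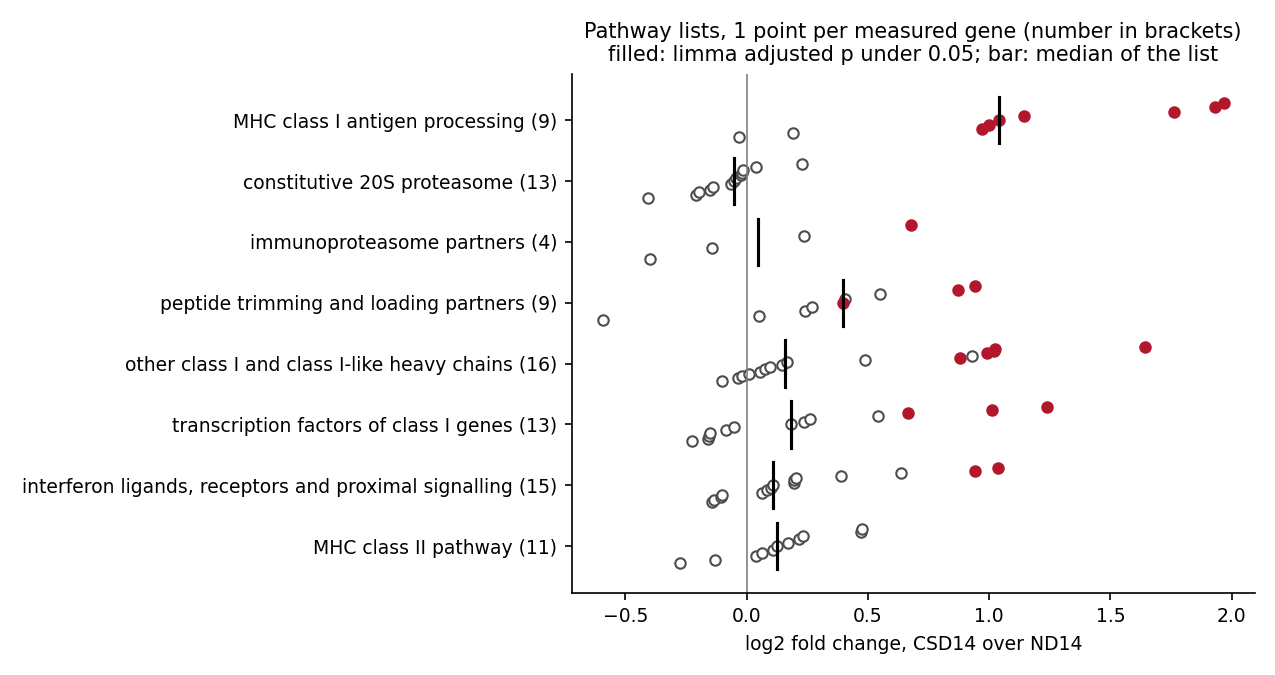
Log2 fold change of each gene in CSD14 over ND14 (horizontal axis), 1 row per list, with the number of measured genes in brackets. Red points passed at a limma adjusted p under 0.05, open points did not, and the vertical bar is the list median, which is 1.04 for the MHC class I antigen processing genes and -0.05 for the constitutive 20S proteasome.

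Immune cells express these genes strongly, so leukocyte markers were read on the same arrays. In CSD14 against ND14, 9.15% of all clusters passed in limma after adjustment, in either direction. Of the markers, 0 of 5 pan-leukocyte, 0 of 9 T and NK cell and 0 of 3 B cell genes passed. At an unadjusted p under 0.05 these lists had 0, 1 and 0 markers, beside 19.3% of all clusters in either direction. Ptprc, which encodes the pan-leukocyte antigen CD45, averaged 2.56 ± 0.21 in CSD14, 3.03 ± 0.23 in CSD5 and 2.68 ± 0.09 in ND14 (log2 signal, SD, n = 3), around the array medians. The other genes that open these and the dendritic, endothelium and fibroblast lists (Coro1a, Cd68, Adgre1, Itgax, Flt3, Cd3d, Cd3e, Ms4a1, Pecam1, Cdh5, Col1a1 and Col1a2) did not pass in CSD14 against ND14, with log2 fold changes from -0.36 for Adgre1 to 0.18 for Ms4a1. Macrophage and monocyte markers averaged 4.04 to 4.13 in CSD14 and 3.99 to 4.15 in ND14, and Cd14, the lipopolysaccharide co-receptor, was the 1 of 13 that passed in that comparison. Of 5 dendritic cell markers Cd209a, a lectin, was higher, and 0 of 6 endothelium and 0 of 6 fibroblast markers passed in limma, with 1 of each at an unadjusted p under 0.05. In CSD5 the macrophage and monocyte markers averaged 4.16, 4.75 and 4.73. With all arrays, 0 of these 13 and 0 of 5 pan-leukocyte markers passed in limma in CSD5 against ND14. At an unadjusted p under 0.05, 9 of 13 differed, 8 of them higher, and 4 of 5, all higher. Over all clusters 0.0029% passed and 13.8% had an unadjusted p under 0.05, in either direction. Once replicate 1 was left out, 8 of 13 macrophage and monocyte markers were higher and 1 lower than in ND14. In that fit, where 9.67% of all clusters passed in either direction, 3 of 5 pan-leukocyte markers were higher and 0 lower.

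Epithelial marker lists differed in direction between CSD14 and ND14. In CSD14 against ND14, 9.15% of all clusters passed in either direction, 5.48% as higher and 1263 of 34472 as lower. There 4 of 5 epithelium markers, 2 of 3 club cell markers, 5 of 5 ciliated cell markers and 4 of 10 alveolar type 2 markers were higher. Lower were 5 of 7 squamous epithelium markers and 2 of 2 measured basal cell markers, Krt5 having no cluster of its own. Of 7 alveolar type 1 markers, 3 were higher and 2 lower. Epcam, an epithelial adhesion molecule, was 0.64 higher and Scgb1a1, the club cell secretoglobin, 1.24 higher on the log2 scale, while Cdh1, the adhesion molecule E-cadherin, and Scgb3a2, another club cell secretoglobin, had log2 fold changes of -0.05 and 0.18 and did not pass. The ciliated cell genes Foxj1 and Tppp3 were 0.65 and 1.91 higher. The basal cell factor Trp63 fell by 0.53, the squamous keratins Krt6a and Krt16 fell by 2.62 and 5.77, and of the alveolar type 1 genes Hopx fell by 1.36 while Ager, at -0.74, did not pass. Squamous markers averaged 5.00 to 5.26 in CSD14, 6.51 to 8.05 in CSD5 and 8.07 to 8.12 in ND14, and ciliated cell markers 6.23 to 6.38 in CSD14, 4.01 to 4.68 in CSD5 and 4.76 to 4.85 in ND14. Among the alveolar type 2 markers the order of the groups varied. The list averaged 5.48 to 5.62 in CSD14, 5.81 to 7.11 in CSD5 and 5.06 to 5.19 in ND14. In CSD14 against CSD5, where 2.41% of all clusters passed in either direction, 0 of 10 were higher and 2 lower. Sftpc, the surfactant protein that defines alveolar type 2 cells, had log2 signals of 4.55, 4.25 and 3.95 in CSD14, 9.49, 11.29 and 11.49 in CSD5, and 5.74, 5.79 and 5.79 in ND14. It was highest at day 5 and lowest in CSD14, and its log2 fold change of -1.52 in CSD14 against ND14 did not pass (limma adjusted p = 0.0597). Sftpb, another surfactant protein, averaged 7.04 ± 0.07 in CSD14, 6.56 ± 0.81 in CSD5 and 4.99 ± 0.24 in ND14 (SD, n = 3) and was 2.05 higher in CSD14 than in ND14. Its means, like those of Abca3 and Sftpd, stood in the order found for most class I genes. Abca3 and Sftpd were named after their values had been seen. The list as a whole was highest in CSD5, with a median log2 fold change of -1.025 in CSD14 against CSD5. At an unadjusted p under 0.05, 7 of its 10 genes differed there, 1 of them higher, beside 16.1% of all clusters in either direction. How much of the class I differences goes with the epithelial make-up of the organoids was not tested.

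**Figure D5:**
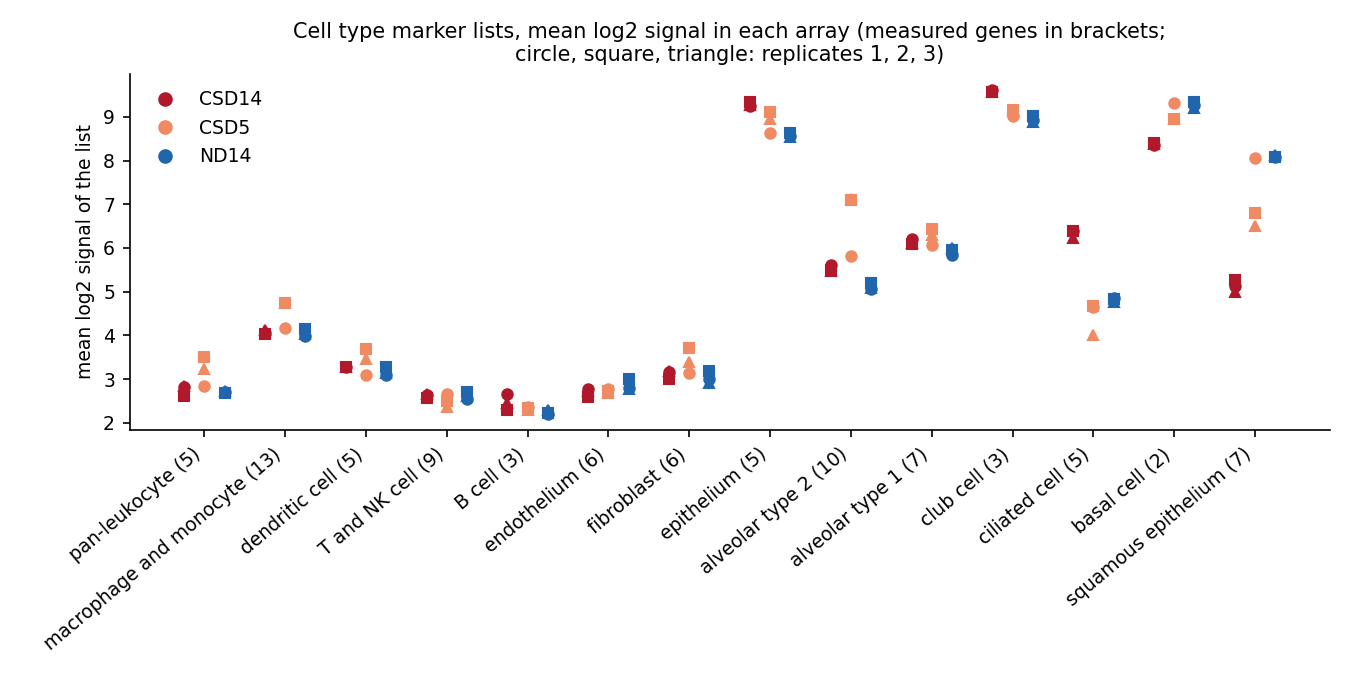
Mean log2 signal of each marker list on every array (vertical axis), with CSD14, CSD5 and ND14 side by side for each cell type and the number of measured markers in brackets. The pan-leukocyte, T and NK cell and B cell lists stay near or below the array medians in CSD14 and ND14, while squamous markers are lowest and ciliated cell markers highest in CSD14.

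The genes whose pattern over the 9 arrays was most like the mean of the measured class I genes, each centred on its own mean, were Lrrc26 (Pearson's r = 0.996), Man2b2 (0.995), Anxa3 (0.992), Ccpg1 (0.992), Slc44a4, Sel1l3, Ifi27, Ctsh and F3 (each 0.991) and Oat (0.990). The 9 points fall into 3 groups, so these values mostly describe shared differences between groups and carry no test. Ifi27, an interferon-inducible gene, was 1.23 higher in CSD14 than in ND14 on the log2 scale, Man2b2, a mannosidase, 1.57 higher and Ctsh, the protease cathepsin H, 0.76 higher. The centred class I mean itself was 0.55, 0.69 and 0.52 in CSD14, -0.40, 0.19 and 0.01 in CSD5, and -0.56, -0.42 and -0.58 in ND14.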

How the data were processed

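RNA of lung organoids was measured on 9 arrays, with 3 arrays each for CSD14, CSD5 and ND14 and 10 ng of input RNA on each. The deposited table gives a log2 signal for each cluster and array. The authors made it with the Transcriptome Analysis Console, including background correction and normalization, by an algorithm not given in the sources used here. They were used without further scaling, and their number, 3 arrays per group, limits the precision. Groups and replicate numbers came from the labels. Of 34472 clusters, 23521 carry 1 symbol, 1820 several and 9131 none in the platform annotation, and genes were named from the first kind only.

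The model of group means over all 9 arrays used limma (version 3.58.1, R 4.3.3), empirical Bayes moderation and Benjamini-Hochberg adjustment over all clusters, and the procedure was tested on simulated data. Differences within arrays were tested by exact permutation. Plots were made in Python 3.11.15 (matplotlib 3.10.9).

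The genes and lists were chosen with earlier results of these data known. All members are named, and of each further list those that passed in CSD14 against ND14, at most 4 by smallest adjusted p, with Psmb5, Psmb6, Psmb7, Irf1 and Ciita, the first 2 genes of each marker list (those with a cluster of their own) and the 10 genes most alike, leaving out predicted genes. After their values were known, H2-T23, H2-Ab1, Ctss, Psme2, Ifng, Ifnb1, Cd14, Cd209a, Abca3 and Sftpd were added. Alternatives changed the arrays (each left out in turn, or only the 6 of a comparison), the model (unmoderated, robust limma-trend, weighted arrays, replicate number as block), the scaling (quantile normalization or median centring), the clusters (those above the 40th percentile of the mean, or the mean of a gene's clusters) and the thresholds (the study's).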

Additional observations from a re-analysis of the deposited data

How the results depend on the processing

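In CSD14 against ND14, 5 to 7 of the 9 genes were called under every alternative tried and the median log2 fold change stayed between 0.95 and 1.10. Leaving out 1 array gave 6 to 7 calls. H2-K1 also lost its call without moderation (adjusted p = 0.106), and at the study's thresholds 5 genes were called, since Psmb10 and Tapbp did not exceed a fold change of 2.

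CSD5 against ND14 depended on the settings. Array weights were 0.329, 3.616 and 0.525 for CSD5 replicates 1, 2 and 3, so CSD5 rested mostly on replicate 2. With these weights 8 genes were called, 7 higher and Nlrc5 lower, with a median of 0.76. All clusters then gave 5900 calls, or 17.1%. At the study's thresholds 1 gene, B2m, was called. Leaving out CSD5 replicate 1 gave 6 calls and the highest median, 0.72, while leaving out any other array gave 0 calls. Over these fits the medians were 0.33 to 0.72. In CSD14 against CSD5, 0 genes were called when only the 6 arrays were fitted (141 of all clusters) and 0 without moderation (182), and leaving out 1 array gave 1 to 2 calls.

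Same-numbered arrays did not deviate together: 0 of 9 correlations exceeded 0.1 (-0.133 to 0.065). With the replicate number as a block, CSD14 against ND14 gave 7 calls, CSD5 against ND14 gave 0 and CSD14 against CSD5 gave 2, with no call changed. Counted per gene, comparison and setting, calls were gained 15 times, lost 14 times and reversed 0 times. The cause of these shifts was not tested. Nlrc5 lay at the array medians, and whether signals this low can show small changes was not tested.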
